A study of Bos taurus with 8 samples.

Results

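The cells described here were CD8 alpha-beta T cells of bovine blood with little or no transcript of the cytotoxic granule genes, selected by measured UMIs (unique molecular identifiers, each standing for 1 captured transcript). A barcode with 200 to 3000 detected genes was taken when it had at least 1 UMI over CD3D, CD3E and CD3G, at least 1 UMI of CD8A, at least 1 UMI of CD8B, at most 1 UMI over GNLY, PRF1, GZMB and CTSW, and none of CD4, WC1, WC1.3, MS4A1 or CD14. In all, 543 cells met these conditions, of 28641 barcodes within the limits on genes and 30756 barcodes in the tables. Whole blood of 4 female Holstein cattle, 2 years old and lactating, was pooled and then divided, so each treatment came from the same mixture of animals. One portion received no LPS (lipopolysaccharide, a component of the bacterial outer membrane), and the others received 2 µg/ml LPS at 37 °C for 2 h, 4 h or 8 h before mononuclear cells were isolated. Each treatment gave 1 droplet library of 3′ transcripts, so no difference between times has a replicate check, and effects of LPS cannot be told apart from effects of library or of incubation time.

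CD8 alpha-beta T cells carry a CD8 alpha and CD8 beta coreceptor that binds MHC class I molecules and are known for killing infected cells once they have been activated. Before they meet antigen they recirculate between blood and lymph nodes, guided by homing receptors such as CCR7, and are kept quiescent by factors such as LEF1 and TCF7. After activation they acquire granule proteins, chemokines such as CCL5 and receptors shared with natural killer cells. T cells generally respond to LPS through cytokines that other blood cells release, such as type I interferons and TNF.

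The non-cytotoxic CD8 cells numbered 131 in the no LPS library, 168 in the 2 h library, 169 in the 4 h library and 75 in the 8 h library. Values for the 4 libraries are given in this order throughout. The cells made up 1.67% (95% exact binomial interval 1.39 to 1.97), 1.70% (1.45 to 1.97), 2.27% (1.95 to 2.64) and 2.18% (1.72 to 2.73) of the kept barcodes. These intervals, like the others below, cover counting error only. Of all CD8A CD8B cells that met the remaining conditions, the share with at most 1 granule UMI was 71.2% (64.1 to 77.6), 72.4% (66.2 to 78.1), 77.2% (71.0 to 82.6) and 83.3% (74.0 to 90.4). The intervals of neighbouring times overlapped for both shares. Requiring 2 UMIs each of CD8A and CD8B lowered the share of kept barcodes to between 0.140% and 0.407%, since 378 of the 543 cells held a single CD8A UMI and 323 a single CD8B UMI. A cell counted here was therefore often recognised by 1 molecule of each chain, and the number of cells depended on depth.

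The 4 libraries held between 30902952 and 63770426 UMIs over 3860 to 10429 barcodes. The selected cells held 646156, 892314, 972501 and 469391 UMIs, with medians per cell of 4724, 5101.5, 5504 and 6264. No cell reached 20% mitochondrial UMIs. Over the pairs of libraries 93 barcodes occurred in both, 4 of the selected cells had a barcode that was also present in another library, and no barcode was selected in 2 libraries. Levels below are sums of UMIs over all cells of a class in a library, scaled to a total of 1000000 (CPM).

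The genes of the rule are given as a description, because they chose the cells. CD8A lay at 265, 273, 247 and 230 CPM, and CD8B at 322, 291, 312 and 285 CPM. CD3E, a signalling chain of the T cell receptor complex, lay at 710, 653, 637 and 769 CPM. All were present at similar levels in the 4 libraries. Of the 543 cells 434 had no granule UMI and 109 had 1, which was PRF1 in 67 cells, CTSW in 37, GNLY in 4 and GZMB in 1. Just outside the limit, 22 cells had 2 granule UMIs and 16 had 3, while 144 had 4 or more. GZMA and XCL1, which the rule did not use, had no UMI in any of the selected cells. GZMA was also sparse beyond the limit, at 0 CPM with 2 granule UMIs and 31.8 CPM with 3 or more. Other effector genes outside the rule were present in the selected cells. In the cells with 0 and 1 granule UMI, GZMM had 12 and 3 UMIs, CST7 11 and 5, and NKG7 41 and 26.

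DAPL1, a gene that had been proposed as a marker of these cells and that the rule did not use, lay at 421, 331, 482 and 435 CPM in the 4 libraries. In B cells (MS4A1 and CD79B present, no CD3 or CD14 UMI) it lay between 1.44 and 2.32 CPM, so the groups did not overlap. After each cell was thinned to 1500 UMIs, DAPL1 was found in 44.2%, 39.3%, 46.4% and 38.9% of the cells, and without thinning in 72.5%, 67.3%, 76.9% and 74.7%. The thinned share in B cells, which gives the level of free RNA, was between 0.0797% and 0.775%, at median depths of 4090.5 to 6215 UMIs before thinning. DAPL1 was not common to all CD8A CD8B cells, since the cytotoxic ones, with at least 2 granule UMIs, had 32.6, 25.6, 33.7 and 283 CPM, the last over 15 cells. CD4 T cells of the same libraries had 79.1, 74.2, 91.1 and 149 CPM. DAPL1 was therefore highest in the selected cells in every library, and the name of CD8 alpha-beta T cells rests on the genes that selected them.

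Genes of naive and recirculating T cells were abundant in these cells. CCR7, the chemokine receptor that leads cells into lymph nodes, lay at 392, 486, 493 and 411 CPM. The transcription factors LEF1 and TCF7 lay at 111, 95.3, 99.7 and 132 CPM and at 214, 206, 237 and 300 CPM. IL7R, the receptor for the survival cytokine IL-7, lay at 860, 906, 864 and 793 CPM. None of these 4 genes differed 2-fold between any of the 4 libraries. CD27, a costimulatory receptor, was lower at 2 h (142 CPM) and 4 h (135 CPM) than without LPS (245 CPM) or at 8 h (249 CPM). Of the 20 genes fixed as a naive and quiescence list, 15 or 16 had 50 or more UMIs in the libraries compared. Their median log2 ratio to no LPS was −0.14, 0.09 and 0.07 for 2 h, 4 h and 8 h, beside 0.04, 0.03 and 0.01 for all genes compared.

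**Figure D1:**
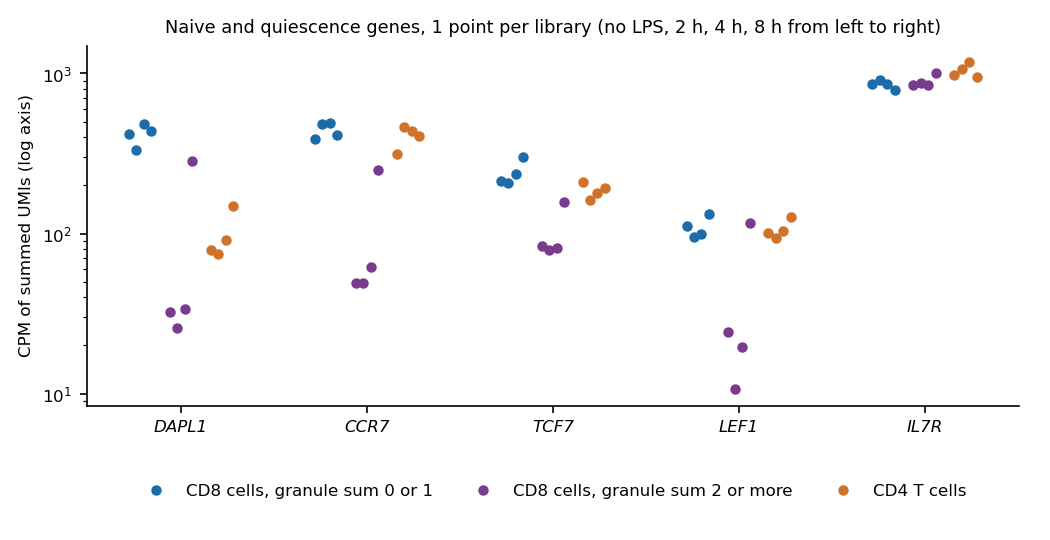
Summed and scaled UMIs (CPM, log axis) of naive and quiescence genes, with 1 point per library in the order no LPS, 2 h, 4 h and 8 h, in the non-cytotoxic CD8 cells, the cytotoxic CD8 cells and the CD4 T cells. DAPL1 at 331 to 482 CPM stands above both other classes in every library, while LEF1 and CCR7 lie close to the CD4 T cells.

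CCR7 and DAPL1 had lower values at each higher granule count, though not every step was clear of counting error. This too is a description, since the granule count is what defined the steps. Over all libraries CCR7 was at 491 CPM in cells with no granule UMI, 327 with 1, 318 with 2 and 38.7 with 3 or more, and DAPL1 at 427, 377, 331 and 17.2 CPM. The chemokine gene CCL5 went the other way, with 146, 489, 709 and 4633 CPM, as did NKG7, a granule membrane protein, with 17.6, 40.3, 119 and 478 CPM. LEF1 was at 115, 72.9, 113 and 15.5 CPM and did not follow the steps. In the other 4 genes the cells with 1 granule UMI lay between those with none and those with more, and the 22 cells with 2 granule UMIs were close to them in CCR7 and DAPL1. The counting intervals at 1 and 2 granule UMIs overlapped, at 285 to 375 and 234 to 422 CPM for CCR7. For DAPL1 they were 331 to 427 and 246 to 437 CPM, and the interval with no granule UMI, 401 to 454 CPM, overlapped both.

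**Figure D2:**
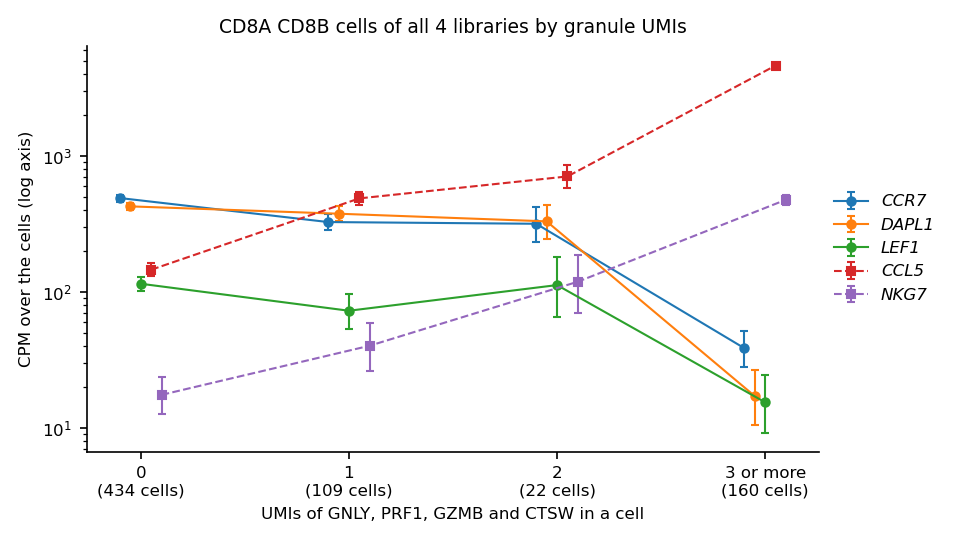
Levels (CPM over the cells of all libraries, log axis) of naive and effector genes in CD8A CD8B cells with 0, 1, 2 or at least 3 UMIs of GNLY, PRF1, GZMB and CTSW (434, 109, 22 and 160 cells), with 95% counting intervals as bars. CCR7 goes from 491 to 38.7 CPM and CCL5 from 146 to 4633 CPM, with the largest step between 2 and at least 3 granule UMIs.

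CCL5, which T cells make after activation, was uneven among the selected cells. It had no UMI in 472 cells, 1 to 4 UMIs in 45 and at least 5 in 26, and those 26 cells held 585 of its 656 UMIs. The 4 libraries held 8, 3, 12 and 3 of them. They had LEF1 at 19.3 CPM, CCR7 at 51.4 CPM and DAPL1 at 25.7 CPM, against 115, 499 and 447 CPM in the cells without CCL5. They also had NKG7 at 205 CPM and S100A4, a calcium-binding protein of memory T cells, at 308 CPM, against 9.37 and 25.8 CPM. A small number of cells with an effector pattern and at most 1 granule UMI thus remained within the rule. The level of CCL5 by library (265, 62.8, 353 and 183 CPM) followed these few cells, and 58 of its 86 UMIs at 8 h lay in 1 cell.

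Few genes differed at least 2-fold between LPS and no LPS. At 2 h, 30 of 3145 genes compared (0.954%) were at least 2-fold higher and 14 (0.445%) at least 2-fold lower. At 4 h, 45 of 3296 (1.37%) were higher and 10 (0.303%) lower, and at 8 h 23 of 2433 (0.945%) were higher and 17 (0.699%) lower. Genes were compared with at least 50 UMIs over both libraries, on the scale log2((CPM + 1)/(CPM + 1)). These numbers have no test and depended on the minimum number of UMIs, as with at least 200 UMIs they were between 0 and 4.

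At 2 h the 6 largest rises were in RGS1, CCL4, NFKBIA, ARFGAP3, BAZ1A and NFKB1. RGS1, a regulator that dampens chemokine receptor signals, was at 23.2 CPM without LPS and at 134 CPM at 2 h, a log2 ratio of 2.48 (95% counting interval 1.76 to 3.42). NFKBIA, the inhibitor that NF-kB itself induces, was at 83.6, 296, 188 and 145 CPM. Its log2 ratio at 2 h was 1.81 (1.40 to 2.27). NFKB1, a subunit of NF-kB, went from 54.2 to 113 CPM at 2 h, a log2 ratio of 1.05 (0.50 to 1.66). ARFGAP3, which acts in vesicle transport, and BAZ1A, a chromatin remodelling factor, had log2 ratios of 1.12 (0.58 to 1.71) and 1.06 (0.57 to 1.60), and CCL4 is described below. TNFAIP3, which encodes the feedback inhibitor A20, was at 23.2, 62.8, 61.7 and 23.4 CPM, and RELB, a further subunit, at 66.5, 124, 111 and 74.6 CPM. Both were higher at 2 h and 4 h than without LPS, with close values at these times, and near the untreated level at 8 h. The NF-kB list had median log2 ratios of 0.77, 0.42 and 0.28 for 2 h, 4 h and 8 h over 12, 11 and 9 genes, and 3, 2 and 0 of them were at least 2-fold higher. In CD4 T cells the medians over the same list were 0.90, 0.82 and 0.39.

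At 4 h the largest differences were in interferon-stimulated genes. MX1, a GTPase that blocks viral replication, had 2 UMIs without LPS and 113 at 4 h (3.1 and 116 CPM), a log2 ratio of 4.84 (3.34 to 8.29). ISG15, a ubiquitin-like protein, was at 9.29, 71.7, 260 and 83.1 CPM, and its log2 ratio at 4 h was 4.67 (3.67 to 6.27). IRF7, a transcription factor that amplifies the interferon response, was at 27.9 CPM without LPS and 113 CPM at 4 h, a log2 ratio of 1.98 (1.29 to 2.83). All 3 were highest at 4 h and had come down by 8 h without reaching the untreated level. BATF, a transcription factor of activated lymphocytes, was at 26.3 CPM without LPS and 98.7 CPM at 4 h, a log2 ratio of 1.87 (1.15 to 2.75). Of 18 genes of the interferon-stimulated list compared at 4 h, 12 were at least 2-fold higher, none was lower and the median log2 ratio was 1.23. The 2 h median was 0.26 over 13 genes and the 8 h median 0.54 over 7. A gene was compared only with at least 50 UMIs over both libraries, so some, such as MX1, entered through their 4 h UMIs. The count of 12 and the medians are thus over different genes, chosen in part by their rise. Summed over all 36 genes of the list found, the level was 908, 1120, 2269 and 1421 CPM. The antiviral enzyme gene OAS1Y was at 3.1, 4.48, 63.8 and 6.39 CPM, HERC5, the ligase for ISG15, at 38.7, 47.1, 113 and 59.7 CPM, and EPSTI1 at 107, 117, 229 and 187 CPM. The peak at 4 h was shared by these genes, with EPSTI1 lower at 8 h by the smallest step.

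Interferon-stimulated transcripts were unequal among the cells at 4 h. After thinning to 1500 UMIs a cell held 3.43 ± 4.21 (SD over 166 cells) UMIs of the list, with a median of 2 and a highest value of 29, and 17.5% of the cells held none. Without LPS the mean was 1.33 UMIs. ISG15 was found in 0.775%, 4.91%, 22.3% and 6.94% of the thinned cells, and without thinning in 3.82%, 15.5%, 37.9% and 18.7%. B cells, which also express ISG15, had thinned shares of 13.2%, 41.4%, 72.4% and 34.6%, so they give no background for this gene. How much of the ISG15 signal in the CD8 cells was free RNA was not tested.

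At 8 h the largest rises were smaller. IFITM1, an interferon-induced membrane protein, was at 86.7 CPM without LPS and 196 CPM at 8 h, a log2 ratio of 1.17 (0.68 to 1.68). ZC3H10, a zinc finger protein gene, went from 78.9 to 185 CPM, a log2 ratio of 1.22 (0.72 to 1.76), and ND3, a mitochondrially encoded subunit of complex I, from 741 to 1534 CPM, a log2 ratio of 1.05 (0.88 to 1.22). LENG8 had a log2 ratio of 0.96. The 8 h library had the fewest selected cells and UMIs, so a gene at a given CPM has a wider counting interval there than in the other libraries.

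A few rises rested on 1 cell. CCL4, a chemokine, was at 32.5 CPM without LPS and 141 CPM at 2 h, but 76 of its 126 UMIs at 2 h came from 1 cell, and without the cell with the most UMIs in each library its log2 ratio went from 2.09 to 0.91. CXCL8, a chemokine for neutrophils, was at 40.2 CPM without LPS and 213 CPM at 4 h. There 166 of its 207 UMIs came from 1 cell, and its log2 ratio went from 2.37 to 0.18 without the highest cells.

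The largest fall at each time was in CCL2, a chemokine gene that monocytes express. CCL2 lay at 173, 24.7, 16.5 and 68.2 CPM in the CD8 cells, with log2 ratios of −2.76 (−3.54 to −2.14), −3.32 (−4.25 to −2.63) and −1.33 (−1.96 to −0.77). In monocytes of the same libraries CCL2 was at 36346, 11124, 5853 and 8459 CPM, and in B cells at 318, 117, 13.9 and 136 CPM. CXCL5 lay at 427, 146, 106 and 309 CPM in the CD8 cells, at 518, 349, 228 and 779 CPM in B cells and between 76655 and 100781 CPM in monocytes. Monocytes within the limits on genes numbered 418, 129, 39 and 31 in the 4 libraries. CCL2 was lower with LPS in CD8 cells, B cells and monocytes alike. The part of free monocyte RNA, or of the number of monocytes, in the falls of CCL2 and CXCL5 in the CD8 cells was not tested. CCL5 had a log2 ratio of −2.06 (−2.54 to −1.63) at 2 h, which came to −0.15 over the cells with no granule UMI. ARAP2, a regulator of small GTPases, was at 102 CPM without LPS and 36.0 CPM at 4 h, a log2 ratio of −1.48 (−2.14 to −0.89), where CD4 T cells had a log2 ratio of 0.19. PRXL2B fell by 1.04 on the log2 scale at 4 h. S100A11, a calcium-binding protein, had log2 ratios of −0.95 (−1.44 to −0.49) at 4 h and −1.13 (−1.80 to −0.52) at 8 h, which came to −0.19 and −0.23 over the cells with no granule UMI. DYNLL1 (−0.93), a dynein light chain, NDUFB9 (−0.92), a subunit of complex I, the histone gene H2AFZ (−0.91) and 1 gene without a symbol (−0.88) followed at 8 h, none of them 2-fold lower.

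**Figure D3:**
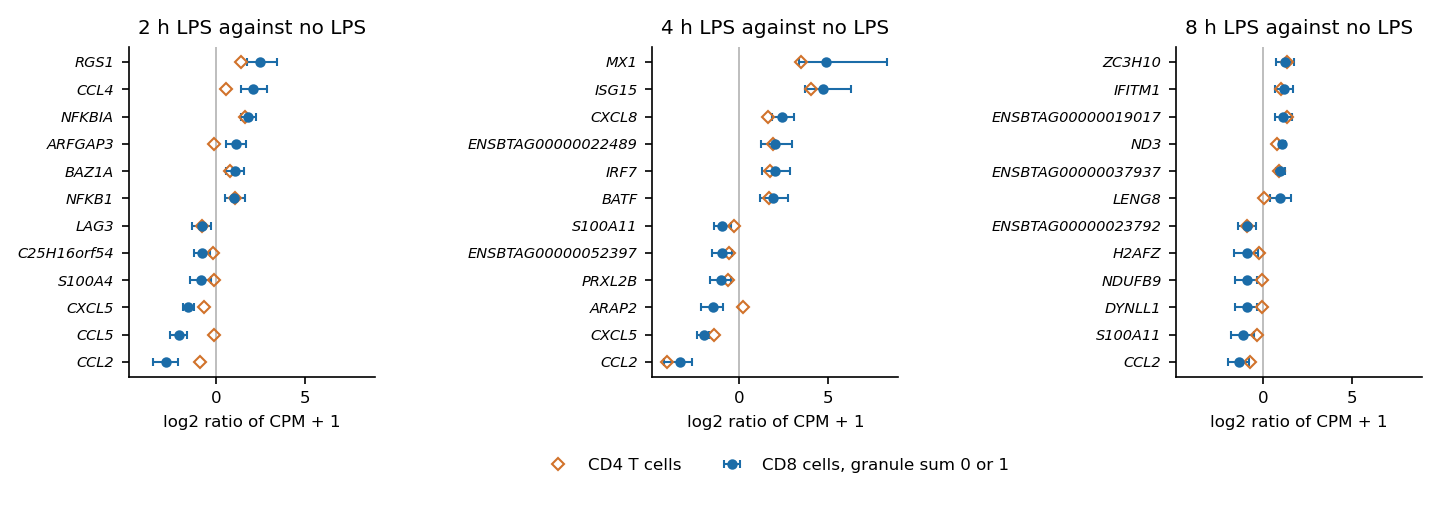
Log2 ratios of CPM + 1 to no LPS for the genes with the largest rises and falls at 2 h, 4 h and 8 h in the non-cytotoxic CD8 cells, with 95% counting intervals as bars and the CD4 T cells of the same libraries as open diamonds. RGS1 (2.48) leads at 2 h and MX1 (4.84) and ISG15 (4.67) at 4 h, while CCL2 is the largest fall at each time.

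The genes of T cell activation with enough UMIs to be compared showed little difference with LPS. The activation and immediate early list had median log2 ratios of −0.00, −0.10 and 0.13 for the 3 times. These medians cover 8 to 10 of 29 genes, of which at most 1 was at least 2-fold higher. The others had fewer than 50 UMIs. Among them IL2RA, described below, was higher at each LPS time than without LPS. CD69, an early activation marker, was at 24.8, 34.7, 32.9 and 40.5 CPM. The cytokine gene TNF had 3, 11, 7 and 7 UMIs and IFNG 0, 2, 0 and 0 UMIs. TLR4, the receptor that recognises LPS, had 1 UMI over all 543 cells, at 8 h. T cell receptor signalling genes had medians of −0.18, −0.05 and −0.14, MHC class I presentation genes 0.02, 0.04 and 0.13, and cytosolic ribosomal protein genes −0.01, −0.00 and −0.03.

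The CD8 cells were then compared with CD4 T cells of the same libraries, to show which genes outside the rule set them apart from the other alpha-beta T cells. CD4 T cells were chosen by the same limits with at least 1 CD4 UMI and no CD8A or CD8B UMI, and numbered 1050, 1380, 1062 and 460. UMIs were summed per class and library and tested by edgeR's quasi-likelihood method with library as a block and Benjamini-Hochberg adjustment, leaving out the 14 genes used for selection. Of 7514 genes tested, 902 (12%) were higher and 1080 (14.4%) lower in the CD8 cells at an adjusted p under 0.05. The 4 libraries come from 1 blood pool, and each has its own LPS time. With the block, these p-values measure only how steady the difference between the classes was over the 4 libraries. They do not measure spread among animals or among replicates of a time. Without the library block 679 genes were higher and 717 lower.

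Of the naive list, 10 of 19 genes tested were higher in the CD8 cells, 3 were lower and the median log2 fold change was 0.24, beside 0.00 for all genes. DAPL1 lay between 331 and 482 CPM against 74.2 to 149 CPM, a log2 fold change of 2.25 ± 0.09 (edgeR adjusted p = 1.75e-25), and was higher in 4 of 4 libraries. Its levels did not overlap between the classes. CD27 was higher by 0.76 on the log2 scale, TCF7 by 0.46 and PIK3IP1, an inhibitor of PI3 kinase signalling, by 1.06. CCR7 was higher by 0.24 with the block and did not pass the test without it. It did not pass among cells with a CCR7 UMI either, but that subset was chosen on CCR7 and cannot check this gene. LEF1 (106 CPM against 103 CPM over all libraries) did not pass. The lower genes were LTB (−0.33), IL7R (−0.19) and CD28, the main costimulatory receptor, with 10 UMIs in the CD8 cells and a log2 fold change of −1.97. LTB and IL7R did not pass without the block, and IL7R also did not pass without the 4 h library or with no granule UMI allowed, and had a log2 fold change of 0.10 among cells with a CCR7 UMI.

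Among the genes of the activation list, MYC, a driver of growth, lay between 214 and 320 CPM in CD8 cells and between 101 and 110 CPM in CD4 T cells (log2 fold change 1.41 ± 0.09, edgeR adjusted p = 3.77e-18, higher in 4 of 4 libraries). JUN, a subunit of AP-1, was higher by 0.80. The activation list as a whole had 2 of 20 genes higher and 10 lower, with a median of −0.32. IL2RA, the high-affinity chain of the IL-2 receptor, lay at 4.64, 29.1, 16.5 and 12.8 CPM against 60.0, 111, 144 and 79.9 CPM in CD4 T cells, a log2 fold change of −2.53 ± 0.18 (edgeR adjusted p = 1.25e-16).

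Effector and memory genes were split, with 5 of 15 higher, 7 lower and a median of −0.23. The higher ones included genes known from the CD8 lineage and from natural killer cells. KLRK1, which encodes the activating receptor NKG2D, lay at 48.0, 48.2, 30.8 and 51.1 CPM in the CD8 cells and at most at 1.23 CPM in CD4 T cells, a log2 fold change of 5.98 ± 0.31 (edgeR adjusted p = 6.28e-21), the largest of all genes tested that had the same direction in 4 of 4 libraries. RUNX3, the transcription factor of the CD8 lineage, lay at 155, 156, 238 and 247 CPM against 48.2, 67.5, 67.8 and 75.3 CPM, a log2 fold change of 1.70 ± 0.10 (edgeR adjusted p = 1.83e-19). RUNX3 was about as high in cytotoxic CD8 cells (194 CPM over all libraries, against 197 CPM), whereas KLRK1 was higher there (118 CPM against 42.9 CPM). NKG7 (2.94) and ID2 (0.55) were also higher than in CD4 T cells. CCL5 had a log2 fold change of 2.70, which came to 0.54 and did not pass the test among cells with a CCR7 UMI in both classes. The lower ones included S100A4, at 89.8, 49.3, 50.4 and 23.4 CPM against 356 to 498 CPM, with a log2 fold change of −2.86 ± 0.11 (edgeR adjusted p = 3.04e-26). PRDM1, a repressor found in differentiated cells, was lower by a log2 fold change of −2.27 and the chemokine receptor gene CXCR6 by −1.25.

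The genes with the largest differences had few UMIs, and several are better known from other tissues. GPM6A, a membrane glycoprotein of neurons, lay at 71.2, 59.4, 56.6 and 74.6 CPM in the CD8 cells and at 2.46, 1.39, 1.39 and 2.84 CPM in CD4 T cells, a log2 fold change of 5.17 ± 0.22 (edgeR adjusted p = 4.72e-24). UCHL1, a ubiquitin hydrolase, lay at 21.7, 33.6, 36.0 and 27.7 CPM against at most 2.13 CPM (5.09 ± 0.36, edgeR adjusted p = 1.6e-16). CDCA5, a regulator of sister chromatid cohesion, lay at 77.4, 78.4, 51.4 and 83.1 CPM against 3.12 to 10.4 CPM (3.39 ± 0.18, edgeR adjusted p = 3.94e-21). All 3 were also low in cytotoxic CD8 cells, at 6.85, 3.04 and 16.0 CPM over all libraries, and under 1 CPM in B cells. DOK7 (4.64), A4GALT (4.54), BEX2 (4.26), PPP1R1B (4.12), BEX3 (3.50) and CD79A (3.26) completed the 10 largest. PPP1R1B and CD79A were higher still in B cells, at 38.7 to 86.7 CPM and 190 to 331 CPM. CD79A, the signalling chain of the B cell receptor, lay at 18.6, 23.5, 17.5 and 25.6 CPM in the CD8 cells, where its partner CD79B had 5 UMIs and the B cell list outside the rule summed to between 30.3 and 46.9 CPM, against 2263 to 2854 CPM in B cells.

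The 10 largest differences in the other direction were genes nearly absent from the CD8 cells. CD40LG, the helper T cell ligand for CD40, had no UMI in the CD8 cells and 182 in CD4 T cells, at least 9.07-fold lower when 3 counts over the class are taken as the floor. IL17RB, a receptor for IL-25, had 0 and 239 UMIs (at least 11.9-fold lower), PIP5K1B 0 and 159 (at least 7.92-fold) and SLC35D2 0 and 128 (at least 6.38-fold). The other 6 had 1 to 3 UMIs in the CD8 cells, so their ratios are wide. CYSLTR2, a leukotriene receptor, had 1 and 265 UMIs, and its counting interval for the ratio of CD4 to CD8 levels was 7.05 to 1570. SYN2 (1 and 210 UMIs, 5.57 to 1245), EPAS1 (1 and 172, 4.55 to 1021), CADM4 and MMP3 (1 and 162 each, 4.28 to 962) and 1 gene without a symbol (3 and 456, 7.72 to 111) made up the rest. These intervals overlap, and no order among the 10 genes is read from them. All 20 genes passed in every alternative in which they were tested, but several were not tested in all of them. Of 11 alternatives, IL17RB, CD40LG, SLC35D2, EPAS1, CADM4, MMP3 and A4GALT were tested in 9 and PIP5K1B in 8. These genes were not tested in the subsets limited by a CCR7 UMI or by depth that are described below.

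**Figure D4:**
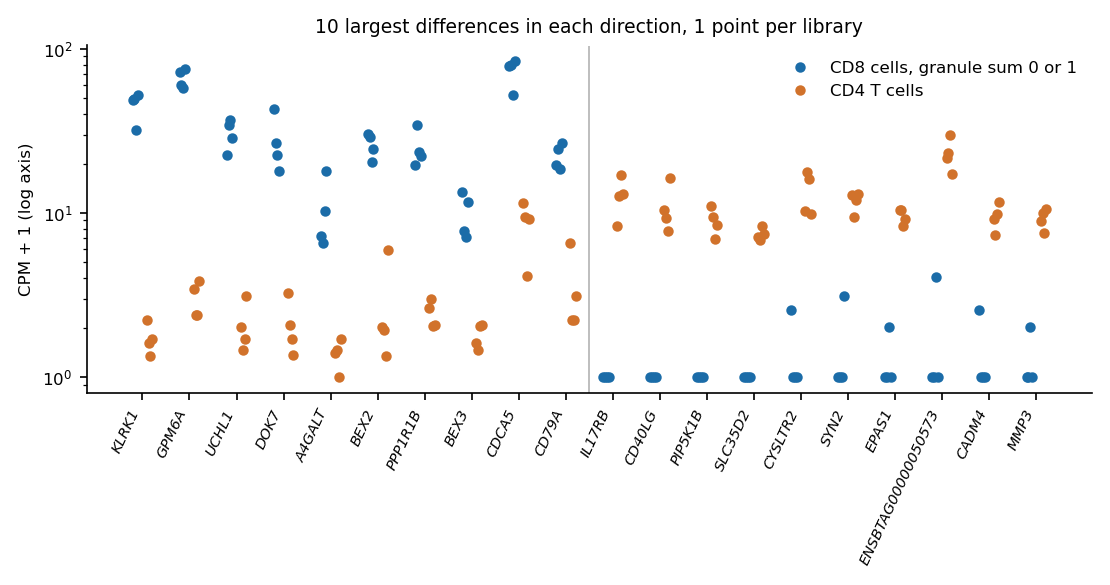
Levels (CPM + 1, log axis) of the 10 genes with the largest positive and the 10 with the largest negative log2 fold change between non-cytotoxic CD8 cells and CD4 T cells, with 1 point per library and class. The classes do not overlap for KLRK1, GPM6A, UCHL1 or CDCA5, and CD40LG, IL17RB, PIP5K1B and SLC35D2 have no UMI in the CD8 cells.

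Costimulatory receptors were mostly lower in the CD8 cells, with 6 of 10 lower, 3 higher and a median of −1.64. TNFRSF4, which encodes OX40, lay at 10.8, 28.0, 7.2 and 6.39 CPM against 56.8, 214, 217 and 68.2 CPM in CD4 T cells, a log2 fold change of −3.37 ± 0.19 (edgeR adjusted p = 5.37e-20). TNFRSF18 (−2.25), the inhibitory receptors PDCD1 (−2.04) and CTLA4 (−1.94) and the costimulator ICOS (−1.33) were lower too. LAG3, an inhibitory receptor that binds MHC class II, was higher, at 101, 58.3, 68.9 and 70.3 CPM against 8.17 to 16.0 CPM (2.87 ± 0.16, edgeR adjusted p = 2.4e-20). CD96, a receptor of the nectin family ligands, was higher by 2.05. In the T cell receptor list 1 of 17 genes was higher and 6 lower, among them CD5, which tunes receptor signals (−1.35), and PTPRC, which encodes CD45 (−0.92). LCK and CD247, the proximal kinase and the zeta chain, did not pass, with log2 fold changes of −0.02 each. Of the homing list 3 of 16 were higher and 7 lower, including CXCR5 (−2.86), the receptor that leads to B cell follicles, ITGAL (−1.44) and ITGB1 (−1.10).

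Interferon-stimulated genes were lower in the CD8 cells than in CD4 T cells, without LPS as well as with it. Of 34 genes tested 30 were lower, none was higher and the median log2 fold change was −0.93. Without the library block 7 of 34 were lower, and without the 4 h library 20 of 32 were lower and USP18 was higher by 0.46. ISG15 lay at 9.29, 71.7, 260 and 83.1 CPM in the CD8 cells, at 119, 494, 1921 and 206 CPM in CD4 T cells and at 152, 1988, 4360 and 440 CPM in B cells. Its log2 fold change against CD4 T cells was −2.62 ± 0.11 (edgeR adjusted p = 1.52e-24, lower in 4 of 4 libraries). MX2 (−2.74), the nucleic acid sensor ZBP1 (−2.74), IFI27 (−2.50), MX1 (−1.45) and IRF7 (−1.13) were lower as well. Summed over the 34 genes, the level was 905, 1120, 2265 and 1421 CPM in the CD8 cells and 1666, 2381, 6223 and 2239 CPM in CD4 T cells. By plain CPM, the number of the 34 genes below the CD4 level was 31, 33, 34 and 31 in the 4 libraries. Of all 7514 genes tested, 4566, 4474, 4441 and 4410 lay below it on the same scale. At 4 h a thinned CD4 T cell held 9.01 UMIs of the list on average and a thinned B cell 16.1, against 3.43 in the CD8 cells. Cytotoxic CD8 cells held 3.38, near the non-cytotoxic ones. Their sums over the 34 genes were 1329, 2087, 2732 and 1040 CPM. The median log2 ratio of non-cytotoxic to cytotoxic CD8 cells was −0.18 over 28 genes, with 3 at least 2-fold higher and 5 at least 2-fold lower. No test was made between these 2 classes. The receptor chains IFNAR1 (−0.67) and IFNAR2 (−1.18) were lower in the CD8 cells too. The median log2 ratio of the list to no LPS was 1.23 in the CD8 cells and 1.46 in CD4 T cells at 4 h and 0.54 and 0.38 at 8 h. These medians are over the genes that had enough UMIs in the CD8 cells at each time. Whether the classes differed in this change was not tested.

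**Figure D5:**
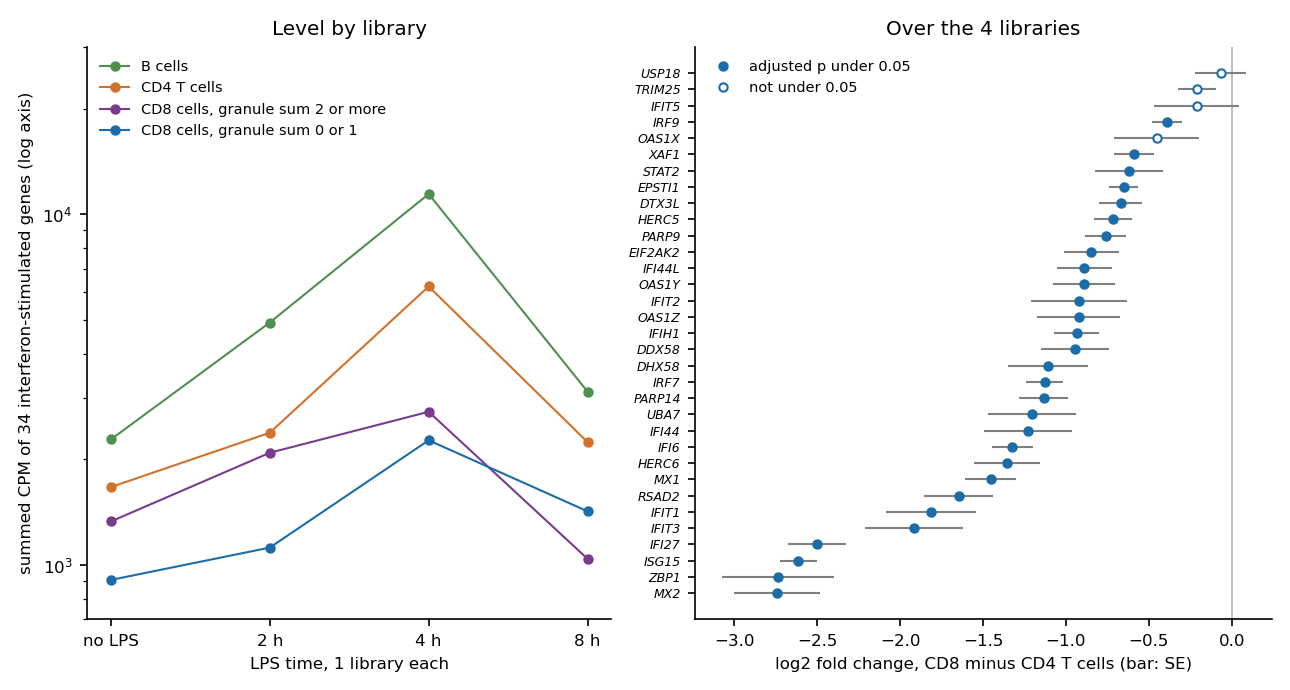
Left, summed CPM (log axis) of 34 interferon-stimulated genes by LPS time in the non-cytotoxic CD8 cells and the comparison classes, 1 library per time. Right, log2 fold changes between CD8 and CD4 T cells for single genes of the list, not all of them drawn, with SE as bars. The CD8 cells reach 2265 CPM at 4 h against 6223 CPM in CD4 T cells, and 30 of the 34 genes are lower by the test.

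NF-kB genes followed the same direction, with 9 of 13 lower, none higher and a median of −0.50, and with 3 lower without the library block. NFKBIA lay at 281, 874, 727 and 400 CPM in CD4 T cells against the 83.6, 296, 188 and 145 CPM given above, a log2 fold change of −1.60 ± 0.07 (edgeR adjusted p = 4.61e-23). TRAF1, an adaptor of TNF receptors, was lower by a log2 fold change of −1.87. TNFAIP3 did not pass (−0.33, edgeR adjusted p = 0.0683). Cytokine receptors and their signalling genes had 13 of 29 lower and none higher, including IL6R (−1.81), IL21R (−1.50) and TNFRSF1B, a receptor for TNF (−1.19). Of 6 genes tested for the LPS receptor and its adaptors, 2 were lower and none higher.

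MHC class I genes, which present peptides to CD8 T cells, were lower in 14 of 15 genes tested, with a median of −0.45. B2M, the invariant light chain, was at 9909 CPM over all libraries in the CD8 cells and 14545 CPM in CD4 T cells (log2 fold change −0.45), and the heavy chain gene BOLA at 6014 and 9506 CPM (−0.54). The level of B2M was nearer to that of B cells, between 8205 and 9227 CPM. Cytosolic ribosomal protein genes were higher in 74 of 79 genes and lower in 1, with a median of 0.33. They took 443806 to 449271 CPM in the CD8 cells and 371998 to 391207 CPM in CD4 T cells. Plain CPM, which these genes lower for all others, placed the median of all genes between −0.13 and −0.10 in the 4 libraries, and the fold changes above are relative to scaling that removes this shift.

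Proliferation genes were split, with 5 of 15 higher, 3 lower and a median of 0.08. MKI67, the marker of dividing cells, had 2 UMIs in the CD8 cells, and lay at 0.671 CPM over all libraries against 14.8 CPM in CD4 T cells, and was lower by the test (edgeR adjusted p = 3.14e-08). TYMS (0.90) and MCM7 (0.68), which serve DNA synthesis and replication, were higher. Of 15 heat shock and chaperone genes 1 was higher and 5 lower.

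Many of these calls were also made in subsets of the same cells, limited by a CCR7 UMI or by depth. Both limits were chosen after the data were seen. A CCR7 UMI was present in 430 of 543 CD8 cells and 2537 of 3952 CD4 T cells. With these cells only, 1494 of the 1877 called genes still tested were called in the same direction, and 28 of 32 interferon-stimulated genes were lower. With cells of 3000 to 8000 UMIs in both classes, 1619 of 1862 were called in the same direction. Both subsets hold most of the cells of the full comparison, so such agreement is partly built in. A single CCR7 UMI does not match the classes in state, and the part of state or depth in the differences was not tested.

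Few genes stood out among the selected cells by the ratio of variance to mean. Of 2111 genes with a UMI in at least 5% of the cells of every library, 12 had a variance of thinned UMIs more than 2 times their mean, and the median ratio was 1.00. This ratio can miss differences in genes with few UMIs per thinned cell. LEF1 had 0.97 and DAPL1 1.41, though both were lower in the cells with at least 5 CCL5 UMIs described above. A ratio near 1 is therefore not read as a lack of variation. The 12 were the cytoskeletal genes ACTG1 (3.22), ACTB (2.80), TMSB10 (2.89) and TMSB4X (2.11), the MHC class I genes BOLA (2.91), JSP.1 (2.09) and B2M (2.17), together with COX3 (2.34), CD52 (2.31), ARFGAP3 (2.28), UBD (2.22) and 1 gene without a symbol (2.56). ARFGAP3 was also among the 6 largest rises at 2 h, with a log2 ratio of 1.12. Most of these genes are highly expressed, where differences between cells exceed counting noise most readily.

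Markers of other blood cells outside the rule were low in the selected cells. The monocyte list summed to 566, 383, 570 and 484 CPM against 77184 to 85651 CPM in monocytes. The natural killer cell list summed to 85.1, 40.3, 41.1 and 59.7 CPM and the plasma cell list to 40.2, 43.7, 40.1 and 25.6 CPM. The gamma-delta T cell list summed to 52.6, 94.1, 38.0 and 38.3 CPM over the 7 of its 15 genes found outside the rule. CD4 T cells had 106 to 118 CPM of it and B cells 94.9 to 152 CPM, so this list does not single out gamma-delta T cells. Whether gamma-delta T cells without WC1 were among the selected cells was not tested. Red cell genes were highest without LPS, at 49.5 CPM, and lay between 6.17 and 25.8 CPM with it. No doublet caller was run, and the rule itself removed cells with a CD4, WC1, WC1.3, MS4A1 or CD14 UMI.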

How the data were processed

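Raw UMI counts for each gene in each barcode of 4 scRNA-seq libraries were deposited by the authors, made with Cell Ranger on ARS-UCD1.2 (bosTau9), without normalization. The deposited scATAC-seq counts were not used here, since they hold no expression values for the rule. The members, comparison classes, gene lists and rules were chosen with earlier results of these data known. UMIs were summed per class and library and scaled to CPM, 1 CPM was added before log2 ratios, and ratios carry exact conditional binomial intervals at the 95% level. Thinning drew 1500 UMIs per cell with 1 seed, leaving out 2, 5, 3 and 3 shallower CD8 cells. Sums of CD8 and CD4 T cells were tested with edgeR 4.0.16 in R 4.3.3 (filterByExpr, TMM, quasi-likelihood, library as a block, since each library holds both classes), and DESeq2 1.42.0 was an alternative. Both steps were tested on simulated data. Genes named were those of the rule and lists, the 6 that rose and the 6 that fell most at each LPS time with at least 100 UMIs, the 10 largest differences in each direction from CD4 T cells with the same direction in all 4 libraries, and the 12 most variable genes. Names are those of the tables, where XCL2, BST2, IL15RA, TICAM1 and the T cell receptor constant genes TRAC, TRDC and TRGC, among others, were not found. Results were recomputed with other limits, scalings, pseudocounts, thinning depths and libraries left out. Some genes of the lists enter the counts and medians and are not reported here by name.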

Additional observations from a re-analysis of the deposited data

How the results depend on the processing

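No gene named with an LPS log2 ratio past 1 changed direction under the alternatives. List medians near 0 did. With no granule UMI allowed, the interferon median at 2 h went from 0.26 to −0.02 and the naive median at 4 h from 0.09 to −0.02. The activation median at 4 h went from −0.10 to 0.07 with no upper limit on genes, and at 2 h from −0.00 to 0.14 with no minimum and to 0.02 with no granule UMI. These shifts were smaller than the typical counting interval of a single gene of the list. The NF-kB median shifted by more than that in 2 of 29 recomputed values, with at least 200 UMIs to 1.81 at 2 h and 1.16 at 4 h. Of the log2 ratios of named genes 21 moved and 795 did not. For the values that moved the cause was not tested, except where the alternative itself removes cells, genes or UMIs. The share of kept barcodes (no LPS, 2 h, 4 h, 8 h) became 1.28%, 1.35%, 1.88% and 1.72% with no granule UMI allowed, 0.140%, 0.232%, 0.363% and 0.407% with at least 2 UMIs of CD8A and of CD8B, and 0.448%, 0.563%, 0.549% and 0.639% after thinning barcodes to 2000 UMIs. The numbers of genes at least 2-fold higher and lower with a pseudocount of 10 CPM became 15 and 5 (2 h), 28 and 3 (4 h), and 13 and 7 (8 h). With no minimum they were 1493 and 1232, 1607 and 1267, and 1525 and 1598, and with at least 200 UMIs 1 and 2, 4 and 1, and 1 and 0. With no granule UMI allowed they were 10 and 10 at 8 h, with no upper limit on genes 29 were lower at 2 h and 16 at 4 h, and with the mean of per-cell CPM 46 were higher at 8 h.

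Against CD4 T cells DESeq2 called 504 genes higher and 581 lower. The fit without a replicate block called 679 higher and 717 lower. Leaving out 1 library called 734 to 803 higher and 803 to 932 lower, and the fewest were called without the 4 h library. Of 258 called genes of the lists, markers and named sets, 178 were called in every alternative in which they were tested, and CCR7, IL7R and CXCL8 had the opposite sign in at least 1. For CCR7 the alternative limited to cells with a CCR7 UMI gives no check, since that UMI chose the cells.

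Shares of cells with a UMI rose without thinning, to 39.7%, 36.9%, 40.2% and 52.0% for LEF1, 74.8%, 81.0%, 80.5% and 80.0% for CCR7 and 33.6%, 56.5%, 52.1% and 52.0% for NFKBIA. For ISG15 they were 15.5%, 37.9% and 18.7% at 2 h, 4 h and 8 h, and for CCL5 10.1% and 15.4% at 2 h and 4 h. With 1000 UMIs the share was 8.43% for LEF1 at 2 h, 41.0% and 37.3% for CCR7 and 22.9% and 14.5% for NFKBIA at 2 h and 4 h, and 15.7% for ISG15 at 4 h. At 469391 to 972501 UMIs over the selected cells of a library, 1 UMI was worth between 1.03 and 2.13 CPM, which limits comparisons of low genes between times.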
